A study of Mus musculus with 19 samples.

Results

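The immunoglobulin genes are the heavy chain genes Ighv, Ighg, Igha, Ighd, Ighe and Ighm, the light chain genes Igkv, Igkc, Iglv and Iglc, and Jchain. Members were taken by these symbol prefixes from the gene-name columns. The table of 7 tissues held 382 such genes among 55573, and 221 of them had a value above 0 in at least 1 library. The table of cold-exposed brown adipose tissue (BAT) held the same number of symbols among 55487 genes, with 58 above 0. In the table of cold-exposed inguinal white adipose tissue (iWAT), which covered 13756 genes, Jchain was the member found, and the other members were not analysed in iWAT.

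Gene expression was measured by RNA sequencing as FPKM, a count of fragments scaled to gene length and to the size of the library. One set covered small intestine, white adipose, brown adipose, liver, heart, brain and tibialis anterior muscle of C57BL/6J wild-type (WT) mice on a chow diet, with 1 library per tissue and no replicate, so no difference between these tissues was tested. Chow-fed mice of the study were between 2 and 8 months of age, and no narrower age is given for these animals. The other set compared iWAT and BAT of male MCK-Musclin and WT mice, 5 months old and fed chow, after 1 week at 8°C, with 3 biological replicates per group and tissue. MCK-Musclin mice carry a transgene that expresses Musclin (gene Ostn), a hormone-like peptide of muscle, from the muscle creatine kinase promoter, and were backcrossed to C57BL/6J. The labels do not say whether the iWAT and BAT libraries came from the same animals. RNA of white adipose and iWAT was isolated with a column kit and RNA of the other tissues with TRIzol, so extraction and tissue cannot be told apart.

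Antibodies are built from paired heavy and light chains. In each B cell a variable exon is joined from V, D and J segments for the heavy chain and from V and J segments for the kappa or lambda light chain. The constant gene then sets the class: a B cell first uses Ighm and Ighd and can switch to an Ighg, Igha or Ighe gene. Plasma cells transcribe these genes at very high levels. In the gut wall they secrete mainly IgA, which Jchain links into dimers and the receptor Pigr carries across the epithelium. Adipose depots hold B cells of their own, including B-1 cells that make natural IgM, and the inguinal fat pad encloses a lymph node.

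Several members are so alike in sequence that a short read can be hard to place, and the stretches below show where the genes named most often can be told apart. Each is the last 120 coding bases of the V exon in the C57BL/6J reference (build GRCm38, GENCODE annotation), read 5′ to 3′ on the coding strand. Capitals mark the bases that differ from the most similar member or, for Igkv10-96 and Igkv10-94, from each other.
Ighv11-2: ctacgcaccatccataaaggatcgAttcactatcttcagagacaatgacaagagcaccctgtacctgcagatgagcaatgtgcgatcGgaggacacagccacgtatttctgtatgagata
Ighv11-1: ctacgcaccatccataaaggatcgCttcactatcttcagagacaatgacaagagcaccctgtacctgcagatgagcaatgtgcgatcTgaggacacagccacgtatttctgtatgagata
Igkv14-126: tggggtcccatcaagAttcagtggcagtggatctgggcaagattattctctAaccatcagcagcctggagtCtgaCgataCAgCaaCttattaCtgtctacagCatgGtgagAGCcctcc
Iglv1: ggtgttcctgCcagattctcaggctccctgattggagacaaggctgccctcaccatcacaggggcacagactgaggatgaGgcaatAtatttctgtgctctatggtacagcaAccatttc
Iglv2: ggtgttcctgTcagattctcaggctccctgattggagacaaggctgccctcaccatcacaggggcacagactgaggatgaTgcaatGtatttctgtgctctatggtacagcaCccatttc
Igkv10-96: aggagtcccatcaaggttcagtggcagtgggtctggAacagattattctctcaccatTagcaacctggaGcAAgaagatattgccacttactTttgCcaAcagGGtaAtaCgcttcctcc
Igkv10-94: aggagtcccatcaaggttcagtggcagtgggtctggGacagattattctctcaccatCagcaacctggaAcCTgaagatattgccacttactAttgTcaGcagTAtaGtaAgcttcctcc
The Ighv11-2 stretch lies at chr12:114048241-114048360 and that of Ighv11-1 at chr12:113981879-113981998, both on the minus strand. They were 98.87% identical over 353 coding bases and differed at 4 positions, 2 of them in the stretch shown. Igkv14-126 (chr6:67896523-67896642, plus strand) stood further from its nearest relative, Igkv14-111, with 91.5% identity. Iglv1 (chr16:19085017-19085136) and Iglv2 (chr16:19260401-19260520), both on the minus strand, were 96.87% identical. For Igkv10-96 (chr6:68631963-68632082) and Igkv10-94 (chr6:68704508-68704627), also on the minus strand, the identity was 95.39%. Across the 217 variable and constant members above 0 in small intestine, the identity to the nearest member had a median of 94.86%, and 103 members had a relative at 95% or more. Levels of such members are uncertain to the extent that reads were shared between them.

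The labels of the tissues were checked first. The tissue markers listed were highest in their own library, apart from Ppargc1a of the brown adipose list. Vil1 was at 443 FPKM in small intestine, Adipoq at 1699 in white adipose and Ucp1 at 467 in brown adipose. Alb was at 22399 in liver, Myh6 at 14088 in heart, Myh4 at 16821 in tibialis anterior and Snap25 at 4072 in brain. Ppargc1a was at 9.17 FPKM in brown adipose, below heart at 19.96 and brain at 12.85. In the cold set Ucp1 was at 2778 to 3792 FPKM in the 6 BAT libraries and at 2.91 to 346 in the 6 iWAT libraries. The summed FPKM of all genes ran from 393682 to 720852 over the tissue and BAT libraries. The number of reads behind these values is unknown, so no counting error can be given and a value of 0 means only that a gene was listed at 0.

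The small intestine library dominated the family. All 221 genes with a value anywhere were above 0 there, compared with 133 in white adipose, 105 in brown adipose, 54 in liver, 27 in heart, 13 in brain and 7 in tibialis anterior. Their summed FPKM was 30979 in small intestine, which was 6.16% of the summed FPKM of all genes. White adipose followed with 699.6, or 0.167%, and brown adipose with 145.2, or 0.0204%. The sums were 56.0 in liver, 25.1 in brain, 24.4 in tibialis anterior and 18.8 in heart. In bulk tissue, fewer cells of a type and less RNA per cell cannot be told apart.

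A gene was counted as high in a tissue when its FPKM, with 0.1 added, was at least 5 times that of the next highest tissue, over genes with at least 1 FPKM in some tissue. By this rule 184 of 196 members were high in small intestine, against 6.42% of all 18327 genes. All 196 had at least 1 FPKM in the small intestine itself, so the count is a description of these libraries. The 12 members that were not high there were 6 heavy chain constant genes (Ighd, Ighg1, Ighg2b, Ighg2c, Ighg3 and Ighm) and 6 variable genes (Ighv11-2, Ighv7-1, Igkv14-126, Igkv3-12, Igkv4-50 and Iglv2). Ighm, Ighg2c, Ighg3 and Ighd had their highest value in white adipose, and Ighm alone was high there by the same rule.

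Among the light chain constant genes, Igkc, the single kappa constant gene (chromosome 6, 70726435 to 70726966, plus strand), had the highest level of any member. Its FPKM was 8751 in small intestine, 117.3 in white adipose, 36.3 in brown adipose, 22.8 in liver, 5.06 in heart, 1.37 in tibialis anterior and 0.616 in brain. It ranked 4th of the 20321 genes above 0 in small intestine. The lambda constant genes were lower in every tissue that listed them. Iglc1 stood at 379 FPKM in small intestine, 7.90 in white adipose and 2.74 in brown adipose, while Iglc2 was at 152 and Iglc3 at 37.0 in small intestine. Iglc4 was listed at 0 in all 7 tissues. The exons of Iglc2 overlap those of Iglj2, and the exons of Iglc3 those of 2010309G21Rik, and the alignment did not use strand. Igkc made up between 88.6% and 95.7% of the light chain constant signal in the 5 tissues with lambda signal.

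Igha, the heavy chain constant gene of IgA (chromosome 12, 113254830 to 113260236, minus strand), followed the order of Igkc from intestine to heart. Its FPKM was 3923 in small intestine, 27.1 in white adipose, 8.73 in brown adipose, 5.36 in liver, 0.984 in heart, 0.520 in brain and 0.344 in tibialis anterior. Jchain, which joins IgA and IgM subunits (chromosome 5, 88519809 to 88527891, minus strand), stood at 1966 FPKM in small intestine, 23.6 in white adipose, 7.44 in brown adipose, 3.53 in liver, 0.340 in heart and 0.237 in brain, and was listed at 0 in tibialis anterior. Igha ranked 11th and Jchain 24th of all genes in small intestine. Relative to small intestine, white adipose reached 0.690% for Igha, 1.20% for Jchain and 1.34% for Igkc. The small intestine markers Vil1, Fabp2 and Lgals4 reached 0.0287%, 0.0127% and 0.950% in the same library.

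Ighm, the constant gene of IgM (chromosome 12, 113418558 to 113422730, minus strand), had another order altogether. It was highest in white adipose at 172.2 FPKM, followed by tibialis anterior at 22.0 and brain at 18.1. The level in small intestine was 6.74, close to brown adipose at 4.62, with liver at 2.61 and heart at 2.33. With 1 library per tissue it is not known which of these neighbours differ beyond the spread between animals. Ighd, which naive B cells transcribe together with Ighm, was at 1.26 FPKM in white adipose and 1.12 in small intestine, and between 0.0630 and 0.455 in the other tissues.

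The constant genes of IgG were each highest in small intestine or white adipose. Ighg2b was highest in small intestine, at 29.8 FPKM against 8.74 in white adipose and 2.96 in brown adipose. Ighg2c was at 13.5 in white adipose, 7.60 in small intestine, 4.27 in brown adipose and 2.90 in brain. Ighg3 stood at 3.23 in white adipose, 2.71 in small intestine and 1.10 in liver, and Ighg1 at 5.22 in small intestine and 1.08 in brown adipose. Ighe, the IgE gene, was listed above 0 in small intestine alone, at 0.0406 FPKM.

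**Figure D1:**
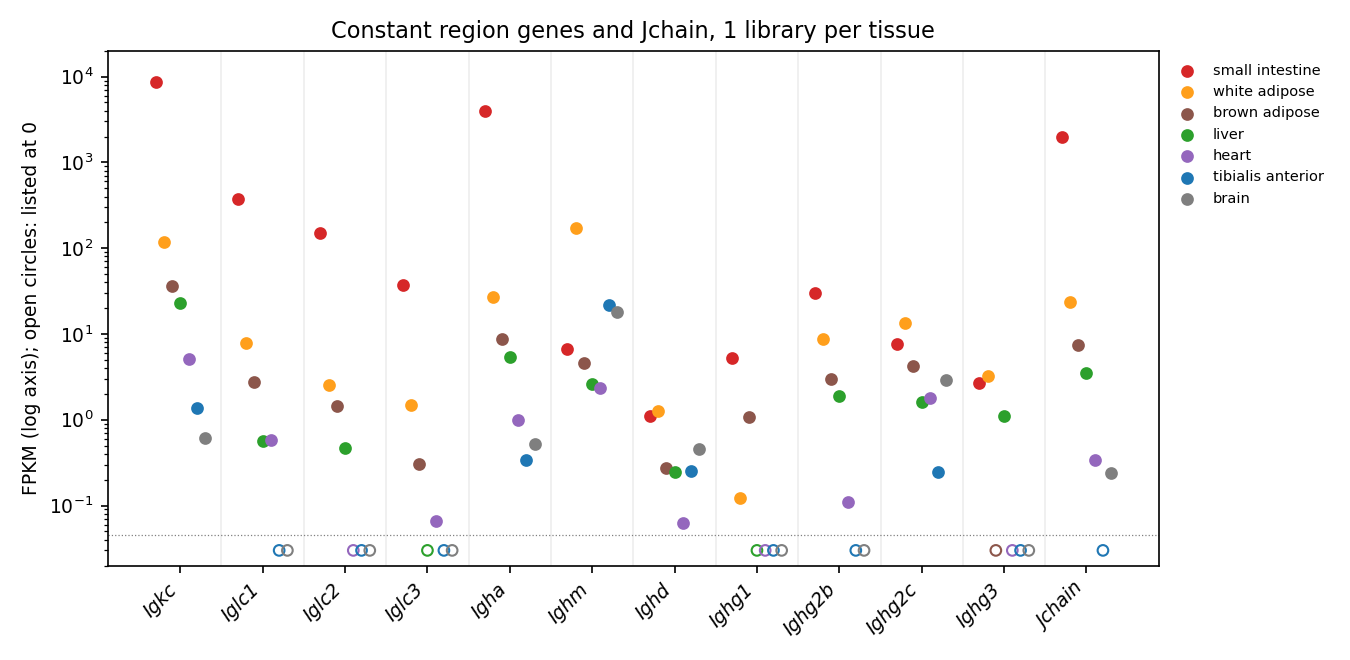
FPKM on a log axis of the constant genes and Jchain in the 7 tissues, 1 library each, with open circles at the bottom for values listed at 0. Igkc, Igha and Jchain run from 8751, 3923 and 1966 FPKM in small intestine downwards through white adipose, brown adipose and liver, whereas Ighm peaks in white adipose at 172.2.

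These levels gave each tissue library its own mix of classes. In small intestine Igha made up 98.7% of the summed heavy chain constant FPKM, with 1.14% for the IgG genes together and 0.170% for Ighm. In white adipose Ighm made up 76.2%, Igha 12.0% and IgG 11.3%. Brown adipose and liver were mixed: Igha was at 39.8% and 41.7%, IgG at 37.9% and 36.1%, and Ighm at 21.1% and 20.3%. Heart had 44.0% Ighm, 36.2% IgG and 18.6% Igha on a sum of 5.30 FPKM. Tibialis anterior and brain were nearly all Ighm, at 96.3% and 82.4%. The BAT libraries of the cold set had 96.3% to 97.8% Ighm, unlike the brown adipose library. The mix of 1 library thus need not hold for its tissue.

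The Ighm signal of muscle and brain came with few other chains. Tibialis anterior had 16.1 times as much Ighm as Igkc and brain had 29.4 times as much, compared with 1.47 in white adipose and 0.00077 in small intestine. The summed Ighv FPKM per unit of Ighm was 0.0038 in tibialis anterior and 0.0625 in brain, against 0.872 in white adipose. The trait was not particular to these tissues. In the cold BAT libraries Ighm was 4.44 to 51.4 times Igkc, and the summed Ighv FPKM per unit of Ighm was 0.0223 to 0.172. In tibialis anterior the variable genes listed above 0 were Ighv1-12 at 0.0834 FPKM and Igkv4-91 at 0.158. Brain listed 3 Ighv and 4 Igkv genes, led by Ighv3-8 at 0.717 and Igkv6-20 at 0.655. Of the 12 B cell markers, 1 was above 0 in tibialis anterior and 3 in brain.

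**Figure D2:**
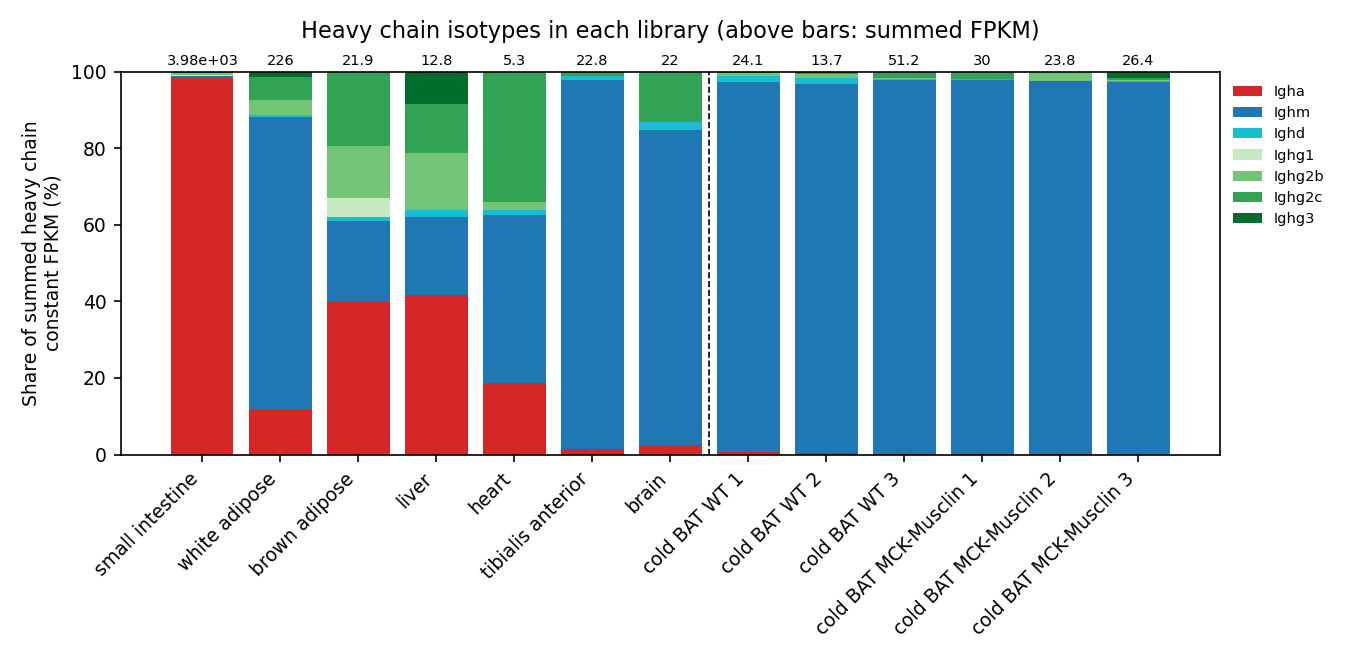
Share of each heavy chain constant gene in the summed heavy chain constant FPKM (percent, stacked to 100) for the 7 tissues and, right of the dashed line, the 6 cold BAT libraries, with the sum in FPKM above each bar. Igha fills 98.7% of the small intestine bar, and Ighm between 96.3% and 97.8% of the cold BAT bars.

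Of the variable genes, which encode the antigen-binding end of each chain, 106 Ighv, 96 Igkv and 3 Iglv genes were above 0 in small intestine. Their sums were 7694, 7193 and 826 FPKM. The highest single gene was Iglv1 at 764 FPKM, followed by Ighv3-6 at 711, Ighv1-55 at 618, Ighv4-1 at 572, Igkv6-15 at 491, Igkv10-96 at 475 and Igkv6-23 at 368. No gene held a large part of its class apart from Iglv1: Ighv3-6 made up 9.24% of the Ighv sum and Igkv6-15 6.83% of the Igkv sum, and the 10 highest genes made up 48.2% and 41.5%. By family, Ighv1 genes gave 56.6% of the Ighv sum, and the Igkv6 and Igkv4 genes gave 20.5% and 19.1% of the Igkv sum.

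The annotation divides the variable genes into functional genes and pseudogenes, and the values followed that division. Of 113 functional Ighv genes 98 were above 0 in small intestine, with a median among those of 38.7 FPKM and a sum of 7687. Of 70 Ighv pseudogenes 8 were above 0, summing to 7.70 FPKM with none over 2.78. Among Igkv genes, 93 of 100 functional genes summed to 7187 FPKM and 3 of 60 pseudogenes to 5.76. Of the 20 D segments, which are very short, 3 were above 0, with a sum of 6.11 FPKM.

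Position along the locus was examined next, because V segments lie at increasing distance from the segments they join. The functional Ighv genes lie between 156 and 2577 kb from Ighm, all on its strand. The nearest 38 gave 24.5% of the Ighv sum in small intestine, the middle 38 gave 32.3% and the farthest 37 gave 43.2%. In white adipose the same groups gave 39.0%, 27.7% and 33.2%. The nearest group summed to 58.6 FPKM there, of which Ighv11-2 alone gave 27.1, so its share rests largely on 1 gene. The Igkv locus has genes in both orientations, which join by deletion or by inversion. The 62 genes on the strand opposite to Igkc gave 73.7% of the Igkv sum in small intestine and the 38 on its own strand 26.3%, with medians of 41.1 and 37.1 FPKM. These shares are descriptions of 1 library per tissue.

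**Figure D3:**
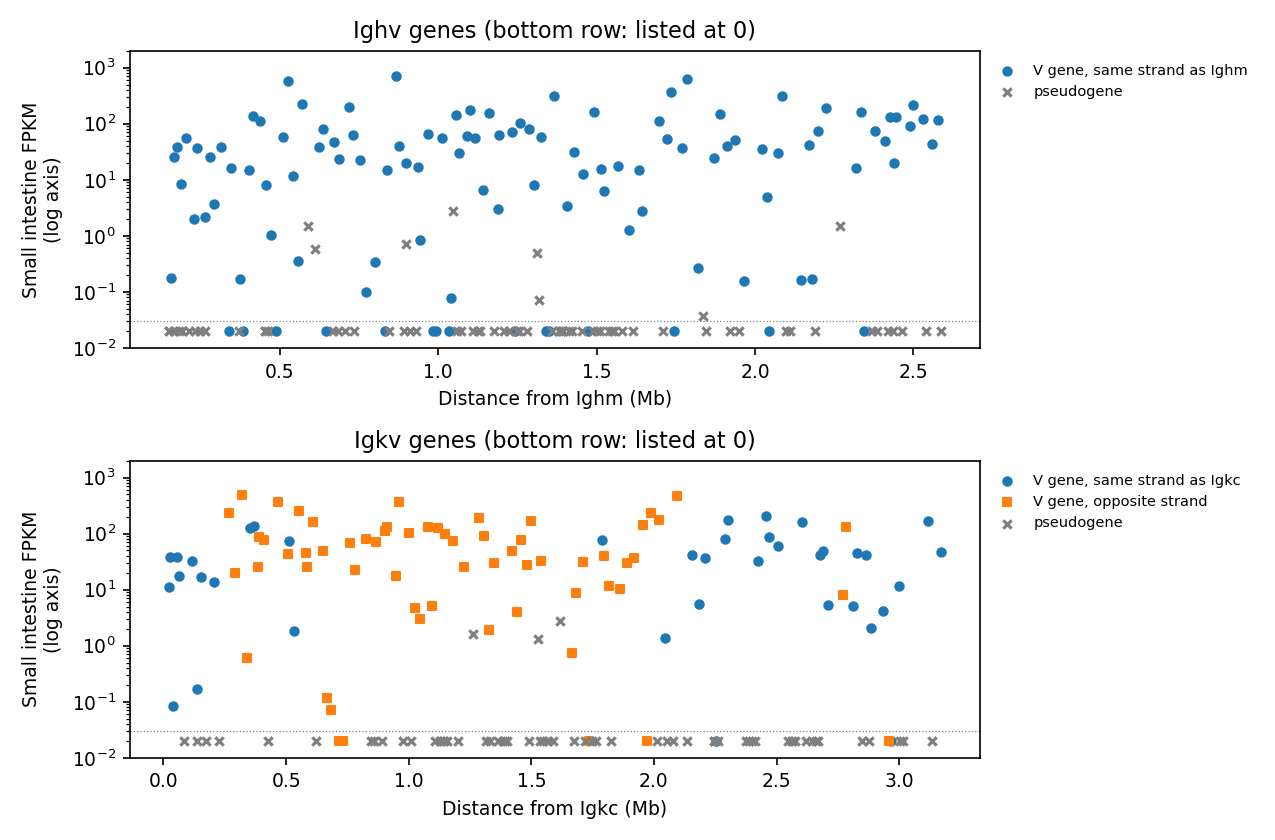
Small intestine FPKM (log axis) of every Ighv gene against its distance from Ighm (upper panel) and every Igkv gene against its distance from Igkc (lower panel), in megabases; crosses are pseudogenes and the bottom row holds genes listed at 0. Functional genes are spread over the whole of both loci, and 8 Ighv and 3 Igkv pseudogenes lie above the bottom row.

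White adipose had the second largest set of variable genes, with 60 Ighv and 57 Igkv genes above 0, but led by other genes than the intestine. Ighv11-2 was the highest Ighv gene at 27.1 FPKM and 18.0% of the Ighv sum, against 39.1 FPKM and 0.508% in small intestine. Igkv14-126 was the highest Igkv gene at 18.6 FPKM and 12.8% of the Igkv sum, against 44.9 FPKM and 0.624% in small intestine. These heavy and light chain genes are known as the pair used by B-1 cells whose antibodies bind phosphatidylcholine. Iglv2 made up 23.7% of the Iglv sum in white adipose at 6.03 FPKM and 3.29% in small intestine at 27.1. Iglv1, its near copy, was at 19.3 FPKM in white adipose.

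Set against the rest of the family, these genes lay far from the median. White adipose reached a median of 0.863% of the small intestine level over the 90 Ighv genes with at least 1 FPKM in the intestine, and 0.884% over 90 Igkv genes. Ighv11-2 reached 69.3%, and the next was Ighv7-1 at 57.5% on low values (0.599 against 1.04 FPKM). Igkv14-126 reached 41.4%, followed by Igkv4-50 at 24.5%. Only 6 Ighv and 7 Igkv genes reached 10%. Ighv11-1, whose sequence is shown above, was at 0.349 FPKM in small intestine, and Ighv11-2 was the member of its family above 0 in white adipose.

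The genes that led in the intestine were also present in white adipose: Ighv3-6 was at 14.7 FPKM, Igkv6-15 at 13.3, Igkv6-23 at 10.9 and Ighv4-1 at 10.2. Of the 20 highest Ighv genes of white adipose 12 (60.0%) were among the 20 highest of small intestine, and of the 20 highest Igkv genes 10 (50.0%). Across the Ighv genes above 0 in small intestine, the rank correlation of the levels in the 2 libraries was 0.745 over 106 genes, and for Igkv genes 0.694 over 96. It describes genes within a pair of libraries, where lower genes fall out of detection first, and genes are not independent replicates.

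**Figure D4:**
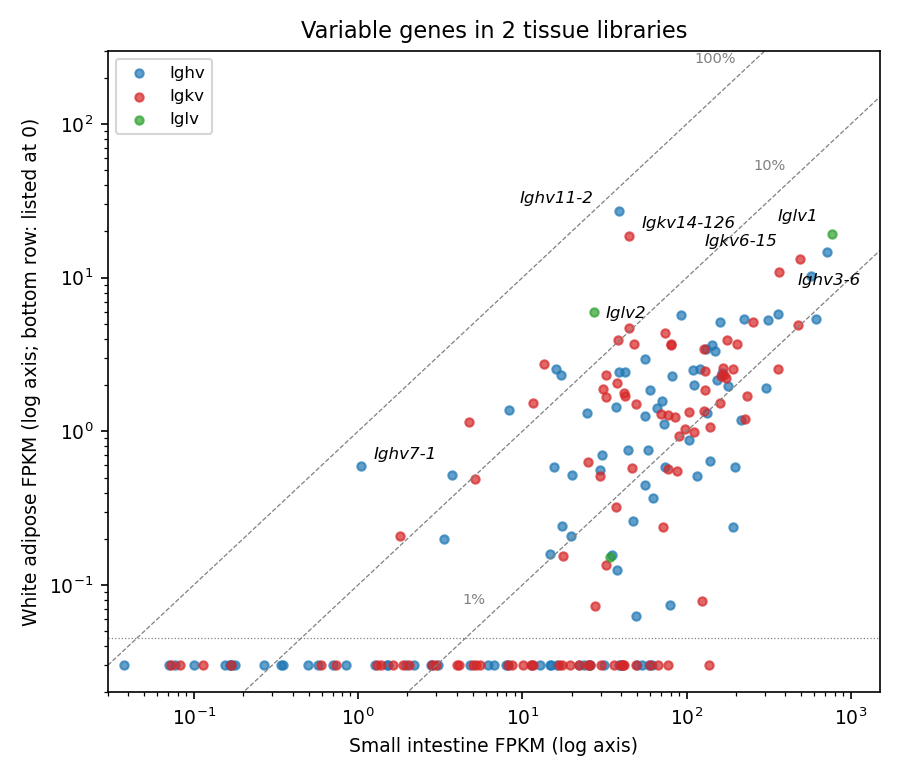
FPKM of each variable gene in white adipose (vertical, log axis) against small intestine (horizontal, log axis), 1 library each; dashed lines mark equal levels, 10% and 1%, and the bottom row holds genes listed at 0 in white adipose. Above the bottom row lie 60 of 106 Ighv and 57 of 96 Igkv genes, and Ighv11-2 at 69.3%, Ighv7-1 at 57.5% and Igkv14-126 at 41.4% lie between the 10% line and the line of equal levels.

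The leading genes of brown adipose from the same set included several of the intestine. The highest were Igkv6-15 at 5.46 FPKM, Igkv10-96 at 4.92, Ighv3-6 at 4.61, Iglv1 at 2.86 and Ighv13-2 at 2.15. Ighv11-2 was listed at 0 and Igkv14-126 was at 0.564 FPKM. Its 20 highest Ighv genes shared 14 (70.0%) with small intestine, and its 20 highest Igkv genes 8 (40.0%). Liver was led by Iglv1 at 1.39 FPKM, Ighv1-55 at 0.999 and Ighv3-6 at 0.894, and heart by Iglv1 at 1.67, Ighv1-66 at 0.994 and Ighv1-77 at 0.854.

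Genes of the cells that make or move antibody were read beside these levels. In small intestine all 12 plasma cell markers were above 0, summing to 445.8 FPKM. Among them were the chaperone partner Mzb1 at 19.05 FPKM, Derl3, a factor of protein disposal in the endoplasmic reticulum, at 26.6, and the coactivator Pou2af1 at 14.4. Sdc1 and Fkbp11 of the same list were higher in liver, at 43.1 and 11.4 FPKM against 33.6 and 9.16 in small intestine. The other markers of the list were highest in small intestine. Cd79a, the signalling subunit of the B cell receptor, was at 33.0 there. Pigr was at 1727 FPKM in small intestine and 406 in liver, and the gut homing chemokines Ccl25 and Ccl28 were at 221 and 29.9 in small intestine. In white adipose Cd79a was at 1.56 and the B cell surface gene Ms4a1 at 0.614. Of the plasma cell markers 11 of 12 were above 0 in white adipose, summing to 209.8 FPKM. Most of that sum came from Xbp1 at 137.9 and Txndc5 at 49.7, and the same sum was 255.2 in liver. Derl3 and Pou2af1 were at 0.365 and 0.552 in white adipose, with Mzb1 at 0. Of the lymph node stroma markers 5 of 7 were above 0, summing to 37.2 FPKM, led by the chemokine Ccl21a at 26.2, while Glycam1 and Madcam1, genes of lymphoid vessels, were at 0. All 12 B cell markers were above 0 in white adipose with a summed level of 8.54 FPKM, against 44.0 in small intestine. Haemoglobin Hba-a1, a marker of blood, was at 698 FPKM in white adipose and 13.3 in small intestine. The part of blood or of a lymph node in the white adipose values was not tested beyond these levels.

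Before the genotypes were compared, the transgene was read in every cold library. Ostn was listed at 0 in the 3 WT BAT libraries and at 37.9, 31.6 and 30.3 FPKM in the MCK-Musclin ones. In iWAT it was at 0, 0 and 0.225 FPKM in WT and at 0, 5.17 and 4.21 in MCK-Musclin. The iWAT library labelled MCK-Musclin replicate 1 thus showed no Ostn. Its muscle gene Ckm was also listed at 0, as it was in WT replicate 1. Ucp1 was at 173 FPKM in this library, against 130 to 346 in WT iWAT and 31.6 and 2.91 in MCK-Musclin replicates 2 and 3. Its label was kept, and the reason for the missing Ostn was not tested.

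In cold BAT Ighm was the highest member in each of the 6 libraries. The number of members above 0 was 20, 26 and 35 in the WT libraries and 18, 18 and 17 in the MCK-Musclin libraries, ranges that did not overlap. Over all genes the numbers above 0 did overlap, at 19398, 19534 and 19554 in WT and 19504, 19265 and 19240 in MCK-Musclin. The read depth behind these detections is unknown. Ighm was at 23.3, 13.2 and 50.0 FPKM in WT and at 29.3, 23.2 and 25.7 in MCK-Musclin. Igkc was at 5.25, 2.61 and 6.50 in WT and at 4.54, 2.67 and 0.5005 in MCK-Musclin, where the last library was the lowest of the 6. The groups overlapped for both genes. Ighm made up 96.3% to 97.8% of the heavy chain constant signal in the 6 libraries, and Igha was between 0 and 0.144 FPKM.

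Neither gene differed between genotypes beyond the spread between replicates. The difference was tested with limma on log2(FPKM + 1) over the 10893 genes with a mean of at least 1 FPKM, and a change was called where the unadjusted p was below 0.05 and the log2 fold change exceeded 0.3 in either direction. Of the 2 members tested, 0 were called higher and 0 lower, where 1.85% of all genes were called higher and 2.15% lower. Neither passed an unadjusted p of 0.05. For Ighm (28.8 ± 19.04 FPKM in WT and 26.1 ± 3.08 in MCK-Musclin, SD, n = 3) the log2 fold change was 0.05 with an SE of 0.41, a 95% interval from -0.89 to 1.00 and an adjusted p of 0.996 in limma. Its direction turned when 1 library was left out, to -0.39 without WT replicate 2 and -0.03 without MCK-Musclin replicate 1. For Igkc (4.79 ± 1.99 and 2.57 ± 2.02 FPKM) it was -0.82 with an SE of 0.48, an interval from -1.94 to 0.30 and an adjusted p of 0.968 in limma. Without MCK-Musclin replicate 1 it was -1.24 and passed the call at an unadjusted p of 0.030 in limma, with an adjusted p of 0.995.

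The other members in BAT had means under 1 FPKM. Jchain was at 0.483, 0.317 and 0.588 FPKM in WT and at 0.199, 0.348 and 0.0682 in MCK-Musclin, which overlapped in 1 library of each group. Without the filter on low values, 58 members were tested and 1 was called higher, Iglc2, where 0.977% of all 23961 genes were called higher in the same fit. This lone call is no result about the members. Iglc2 stood at 0.229, 0 and 0.0859 FPKM in WT and 0.581, 0.172 and 0.526 in MCK-Musclin, with a log2 fold change of 0.36 and an adjusted p of 0.908 in limma.

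Among the variable genes 45 were above 0 in some cold BAT library, 30 of them in 1 library only. Ighv11-2, the leading heavy chain gene of white adipose, was found in 5 of 6 libraries, at 0.446, 0.506 and 0.327 FPKM in WT and at 0.378, 1.53 and 0 in MCK-Musclin. Igkv14-126 was also found in 5, at 0.622, 0.125 and 0.394 in WT and at 0.659, 0 and 0.129 in MCK-Musclin. The library at 0 was not the same for both genes. Iglv1 was in 5 libraries at 0.0673 to 0.588 FPKM, and Iglv2 in 3 at 0.260 to 0.791. Igkv15-103 was at 0.613 FPKM in WT replicate 3 and at 0 in the others. Igkv10-96 and Igkv10-94, compared in sequence above, were both above 0 in the same 4 libraries, at ratios between 3.47 and 3.73 of the former to the latter, and in the tissue table the ratio was 2.74 in small intestine, 2.22 in white adipose, 3.74 in brown adipose and 1.06 in liver.

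Several muscle and blood genes were called higher in MCK-Musclin in these BAT libraries, at an unadjusted p only. The 3 muscle markers were called higher, as were 3 of 5 blood markers, where 1.85% of all genes were called higher. Of these 8 markers 0 passed an adjusted p of 0.05 in limma. The summed muscle markers were at 137 to 226 FPKM in WT and 236 to 480 in MCK-Musclin, so the ranges nearly met, and replicate 1 gave the 480. The summed blood markers were at 1553 to 1978 FPKM in WT and 2293 to 2388 in MCK-Musclin. Acta1, skeletal muscle actin, was at 46.3, 82.3 and 51.9 FPKM in WT and 223, 88.2 and 106 in MCK-Musclin. Scaled to the tibialis anterior library by Acta1, Ckm or Myh4, muscle would bring 0.0627 to 0.417 FPKM of Ighm to these libraries. The Ighm levels listed were 13.2 to 50.0 FPKM. The part of muscle and blood in the Ighm and Igkc values was not tested. The B cell markers were near 0 in all 6 libraries, summing to between 0.645 and 1.56 FPKM.

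**Figure D5:**
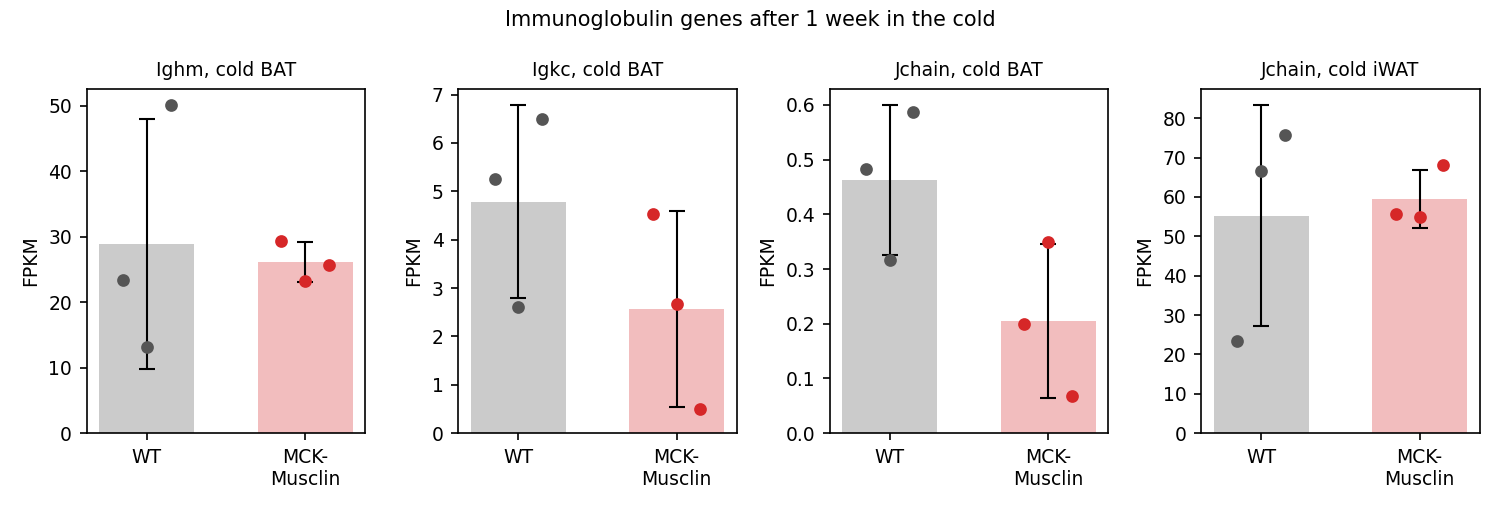
FPKM of Ighm, Igkc and Jchain in cold BAT and of Jchain in cold iWAT by genotype; points are the 3 libraries of each group, bars the mean and whiskers the SD, on axes from 0. The genotypes overlap in all 4 panels, and the WT libraries of Ighm span 13.2 to 50.0 FPKM.

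In cold iWAT Jchain was at 23.4, 66.6 and 75.8 FPKM in WT and at 55.7, 54.9 and 68.0 in MCK-Musclin. The MCK-Musclin values lay inside the WT range, and WT replicate 1 was the lowest of the 6. The means were 55.3 ± 28.0 and 59.5 ± 7.33 FPKM (SD, n = 3). Tested with limma over 12197 genes, with calls made where p before adjustment was below 0.05 and the log2 fold change exceeded 0.5 in either direction, Jchain was not called, so 0 of 1 member was higher and 0 lower, where 5.04% of all genes were called higher and 0.902% lower. The log2 fold change was 0.26 with an SE of 0.40, a 95% interval from -0.68 to 1.21, an unadjusted p of 0.533 and an adjusted p of 0.781 in limma. It was -0.26 without WT replicate 1 and 0.31 without MCK-Musclin replicate 1, the library with no Ostn.

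Other B lineage genes of the same libraries did differ at this cutoff. All 12 B cell markers were called higher in MCK-Musclin, with a median log2 fold change of 0.85 where the median of all genes was 0.06. Cd79a was at 135, 81.7 and 66.9 FPKM in WT and at 151, 204 and 224 in MCK-Musclin (log2 fold change 1.06, adjusted p 0.156 in limma). No marker passed an adjusted p of 0.05, and between 8 and 12 markers were called when 1 library was left out. Of the plasma cell markers 2 of 10 tested were called higher, Pou2af1 by 1.05 and Mzb1 by 0.50 on the log2 scale, and 1 to 4 were called with 1 library left out: 1 without WT replicate 1 or 2 or MCK-Musclin replicate 1 or 3, and 4 without WT replicate 3 or MCK-Musclin replicate 2. The other 8 were not called, with log2 fold changes from -0.13 for Irf4 to 0.40 for Fkbp11 and 0.46 for Slamf7. The difference between Jchain and these genes was not tested.

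Lymph node genes were called in the same direction at this cutoff. Of the T cell markers 5 of 8 were called higher. The 6 lymph node stroma markers tested were all called higher, among them Glycam1 at 7.74, 9.35 and 9.96 FPKM in WT and 18.1, 14.9 and 17.4 in MCK-Musclin. Between 4 and 6 of them were called when 1 library was left out. Fcer2a and Cxcl13 are among these 6 and also stand on other gene lists, so the counts of the lists are not separate. No T cell or stroma marker passed an adjusted p of 0.05 in limma. Chst4, also on the stroma list, was below 1 FPKM in every library and was not tested. The chemokine Cxcl13, which draws B cells to follicles, was at 257, 105 and 79.6 in WT and 252, 246 and 439 in MCK-Musclin. Summed B cell marker levels were 193 to 369 FPKM in WT and 421 to 550 in MCK-Musclin, and the WT library with the lowest Jchain had the highest sum of its group. How much lymph node each sample held, and its part in the Jchain values, was not tested.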

How the data were processed

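The authors isolated poly(A) RNA, sequenced it on an Illumina NovaSeq, filtered reads with fastp and bowtie2, aligned them without strand to mm10 (GRCm38) with HISAT2 and computed FPKM per gene with StringTie, according to the study's methods. The submitters' processing notes also name Cuffdiff. The deposited values are FPKM in separate tables, which keep no read depth and were not joined for a test. Reads were placed on the germline genome, in which V, D and J segments are not joined. The iWAT table also held the authors' own fold changes and p-values, which were not used.

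Members and gene lists were chosen with earlier results of these data known. WT and MCK-Musclin libraries were compared within each tissue by the moderated test of limma 3.58.1 under R 4.3.3, with a mean-variance trend, on log2(FPKM + 1), over genes with a mean of at least 1 FPKM, with Benjamini-Hochberg adjustment over all genes tested and the cutoffs of the study. Fold changes on this scale understate changes of low genes. The tissues were described without a test. Sums and shares add FPKM over members. All 382 members matched GENCODE vM21 by gene ID, and identities were computed between their coding or, where none was annotated, exon sequences. Named genes were all constant genes and Jchain, the 3 highest variable genes per class and library or group, members past the cutoff, and context genes past it or highest in their list; the other genes named were chosen after their values were seen. Some genes of the context lists are not reported here.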

Additional observations from a re-analysis of the deposited data

How the results depend on the processing

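No member was called in iWAT under any alternative. Left-out libraries moved the log2 fold change of Jchain in iWAT between -0.26 and 0.57, of Ighm in BAT between -0.39 and 0.54 (-0.03 without MCK-Musclin replicate 1) and of Igkc in BAT between -1.24 and -0.29, and the number of members called lower in BAT between 0 and 1. With no filter on low values 1 member (Iglc2) was called higher in BAT. Adjusted p ranged over the alternatives from 0.394 to 0.909 for Jchain, 0.908 to 0.995 for Igkc and 0.980 to 0.999 for Ighm, by limma. Rescaling FPKM to TPM within each library moved the ratio of summed member levels from 44.3 to 37.0 between small intestine and white adipose and from 4.82 to 8.16 between white and brown adipose. The number of members high in small intestine ranged from 163 to 191 under other pseudocounts, filters and folds. The leave-one-out counts of B cell, plasma cell and lymph node markers were added after seeing the data. With the replicate number as a block, p was 0.422 for Jchain, 0.145 for Igkc and 0.879 for Ighm by limma, with 0 members called in either tissue and no call changed. Same-numbered libraries correlated at 0.235, 0.0615 and 0.107 in iWAT and at -0.0951, -0.00463 and 0.00937 in BAT. Differently numbered libraries correlated between -0.180 and 0.0702 in iWAT and between -0.0842 and 0.0795 in BAT. With 3 libraries per group these values cannot decide whether same-numbered libraries were paired. With 3 libraries per group and 1 per tissue, the spread between animals limits the first comparison and is unknown in the second, and no depth is known with which to judge values near 0.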

Other observations

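Receptors that bind or carry antibody were spread over the tissues in their own ways. Fcgrt, the neonatal Fc receptor that recycles IgG, was highest in white adipose at 100.1 FPKM and second in brown adipose at 53.3, with 24.0 in small intestine. The IgG receptors Fcgr3 and Fcgr2b were at 71.4 and 30.3 in white adipose, and Fcgr2b was highest in liver at 37.5. Fcamr, a receptor for IgA and IgM, was at 3.01 in white adipose and at or below 0.455 elsewhere. Each value is from 1 library and no difference was tested.

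In cold iWAT 2 of 9 Fc receptor genes tested were called higher in MCK-Musclin, the IgE receptors Fcer1a (log2 fold change 0.77) and Fcer2a (1.01). Of the B cell survival and homing genes 5 of 7 were called higher, among them the survival factor Tnfsf13b (0.76) and its receptor Tnfrsf13c (0.83). These 5 include Cxcl13, which, like Fcer2a, was already counted with the lymph node stroma markers. Vpreb3, a gene of the B cell receptor assembly pathway, had a log2 fold change of 0.89 and was the gene tested of the surrogate light chain and recombination list. Of the class switch genes 0 of 3 passed, by limma at an unadjusted p under 0.05. No gene of these lists passed an adjusted p of 0.05 in iWAT, and in cold BAT 0 of 4 Fc receptor, 0 of 3 survival and homing, 0 of 3 class switch and 0 of 5 plasma cell genes were called by limma at the same unadjusted p.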
